A study of Mus musculus with 40 samples.

Results

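A group of 8 genes that set how the liver takes up, stores and burns glucose and fructose (Slc2a2, Gckr, Khk, Pfkl, Pfkfb1, Pklr, Gys2 and Pygl) was examined for binding of the corepressors NCoR and SMRT and of the deacetylase HDAC3. Peaks of chromatin immunoprecipitation followed by sequencing (ChIP-seq) were taken where their centre lay inside 1 of the 8 genes or within 50 kb of it. This gave 76 of the 60254 peaks in the 3 lists, made up of 43 of 35138 NCoR peaks, 14 of 10654 SMRT peaks and 19 of 14462 HDAC3 peaks. The series held 40 samples in 18 groups, and the 3 lists stood for 9 libraries, 3 for each protein. All came from livers of male C57BL/6 mice that were fed ad libitum and carried floxed Bcl6 alleles without the Albumin-cre transgene that removes Bcl6 from hepatocytes in the knockouts, so the gene was intact. The labels used here give no age. The other 31 samples, which include the knockouts, were not analysed here, so neither genotypes nor fed and fasted states are compared. The study mapped these cofactors to learn which corepressors accompany the repressor BCL6 in liver. No BCL6 list was used here.

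NCoR and SMRT are related scaffold proteins that are held on DNA by repressors such as BCL6 and by nuclear receptors without activating ligand. They carry HDAC3, which removes acetyl groups from histones and needs them for its activity. Hepatocytes take up glucose through GLUT2, the product of Slc2a2, and trap it by phosphorylation, a step that the product of Gckr restrains. Fructose enters metabolism through ketohexokinase (Khk). The sugars then pass to glycolysis, where Pfkl, Pfkfb1 and Pklr encode liver enzymes, or to glycogen, which Gys2 builds and Pygl breaks down. The lists hold positions only, with no height or score, and positions were set on 3 libraries pooled together against a shared input, after which the authors kept peaks by a test on the individual libraries. There was thus 1 list per protein, no test between conditions or animals was possible, and the sequencing depth was not given. A peak present in 1 list and missing in another may differ in depth or antibody as well as in binding, and these cannot be told apart. Intervals in brackets are exact 95% intervals for counting error only, and neighbouring peaks are not independent of each other.

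NCoR was found at all 8 genes, beside 72.3% of the 21938 protein-coding genes in windows built in the same way. SMRT was found at 6 of them, beside 43.1% of all genes, and HDAC3 at 7, beside 52.1%. No SMRT or HDAC3 peak in these windows lay apart from NCoR, with centres up to 200 bp from each other counted as overlapping. In the whole lists, 4.25% of SMRT peaks and 3.53% of HDAC3 peaks had no NCoR centre in that reach. Of the 43 NCoR peaks, 11 had both SMRT and HDAC3 and are called shared sites (25.6%, 13.5 to 41.2, beside 24.9% of all NCoR peaks). A further 8 had HDAC3 without SMRT (18.6%, 8.39 to 33.4, beside 14.8%), and 3 had SMRT without HDAC3 (6.98%, 1.46 to 19.1, beside 4.16%). The remaining 21 had neither and are called NCoR-only sites (48.8%, 33.3 to 64.5, beside 56.1%). The share of each class over the whole list lay inside the interval at these genes.

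**Figure D1:**
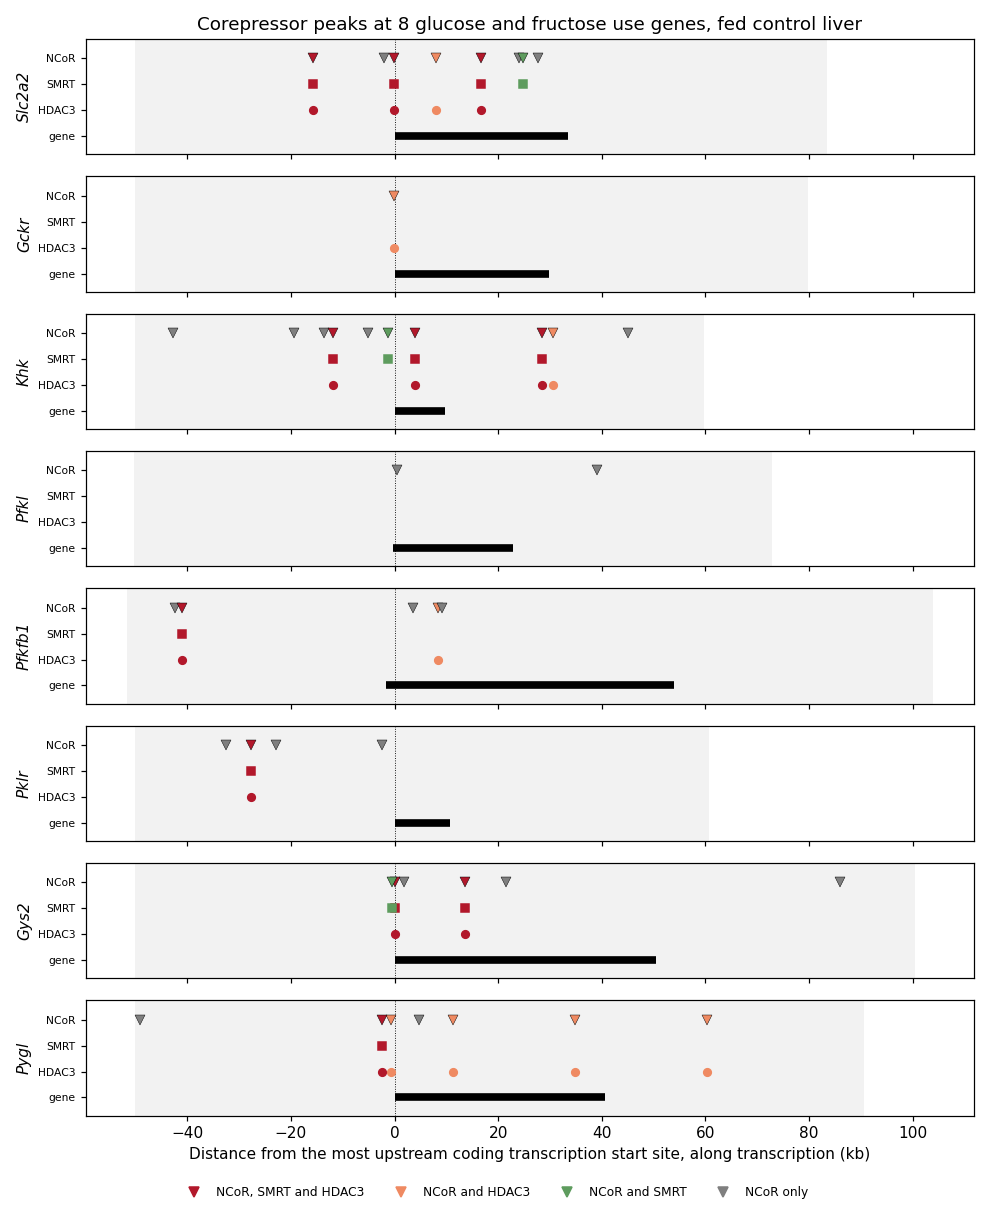
Peaks at the 8 genes, 1 panel a gene, by distance in kb from the most upstream coding start site and along the direction of transcription. Triangles are NCoR peaks coloured by class, squares SMRT peaks, circles HDAC3 peaks, black bars the genes and grey the windows searched; the sites of Slc2a2 span its promoter and introns, whereas Gckr has 1 site at its start and Pfkl has NCoR alone.

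The genes differed in how much they held. Khk had 10 NCoR peaks (4.80 to 18.4), Slc2a2 8 (3.45 to 15.8), Pygl 7 (2.81 to 14.4), Gys2 6 (2.20 to 13.1), Pfkfb1 5 (1.62 to 11.7), Pklr 4 (1.09 to 10.2), Pfkl 2 (0.242 to 7.22) and Gckr 1 (0.0253 to 5.57). The counting intervals of neighbours in this order overlap, and those of Khk and Gckr at its ends also meet. The median over the 8 genes was 5.50 NCoR peaks, beside 2 over all genes, and the windows were also longer, with a median gene length of 31.7 kb against 17.4 kb. Per 100 kb of window the medians were 3.80 and 1.76. In windows of equal size around the start site, 50 kb to either side, they were 5 and 2. As many NCoR peaks as Khk held, or more, were found at 7.31% of all genes, and as many as Slc2a2 held at 13.6%.

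Shared sites were present at 6 of the 8 genes, with 3 each at Slc2a2 and Khk, 2 at Gys2, and 1 each at Pfkfb1, Pklr and Pygl. Over all genes 39.2% had at least 1, and 10.4% had 3 or more. Gckr and Pfkl had none. The nearest start site of a protein-coding gene was that of the member for 27 of the 43 NCoR peaks (62.8%, 46.7 to 77.0), and 7 of the 11 shared sites were among them. The other 16 peaks were nearest to 10 other genes, so a count at these loci is not a count of sites of these genes alone.

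**Figure D2:**
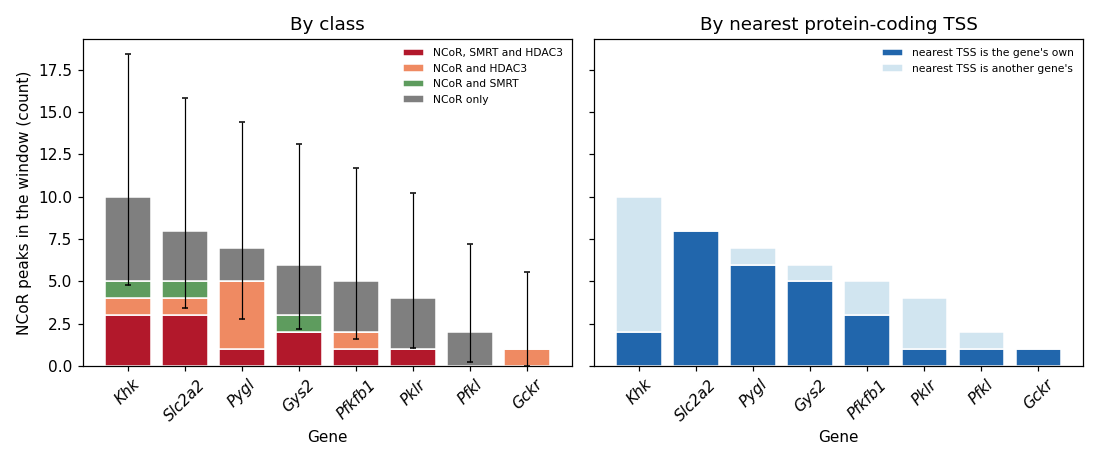
NCoR peaks per gene, stacked by class on the left with exact 95% Poisson intervals of the total, and by nearest protein-coding start site on the right. Khk had the highest total of the 8, with 10, but only 2 of these were nearest to its own start, whereas all 8 at Slc2a2 were nearest to Slc2a2.

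**Figure D3:**
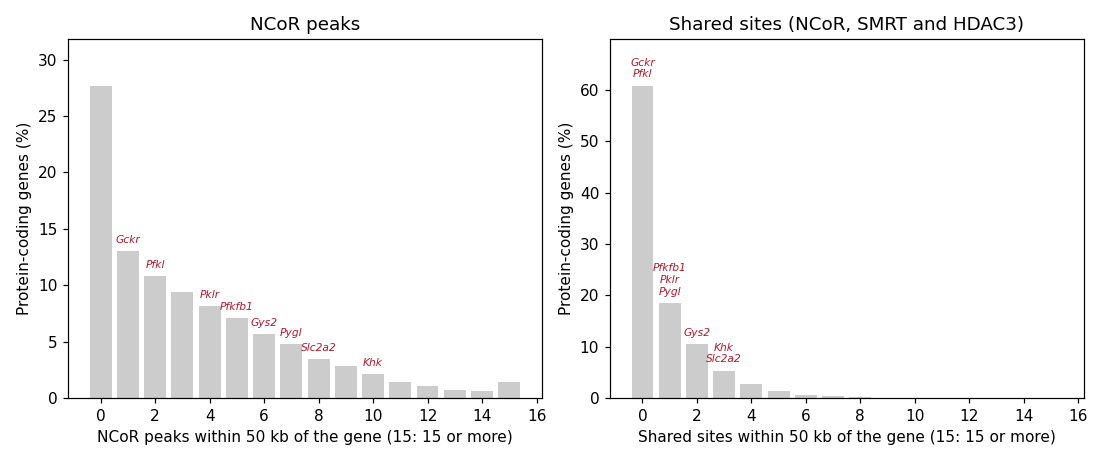
Share of 21938 protein-coding genes (%) by number of NCoR peaks (left) and of shared sites (right) inside the gene or within 50 kb, with counts of 15 or more in the last bar. The names of the 8 genes stand above the bar of their own count, from 1 (Gckr) to 10 (Khk) for NCoR and from 0 to 3 for shared sites.

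Slc2a2, the GLUT2 transporter gene (ENSMUSG00000027690.13, mm10 chr3:28697903-28731359, plus strand), had 8 NCoR, 4 SMRT and 4 HDAC3 peaks, and all 8 NCoR peaks were nearest to the gene itself, as was the single peak of Gckr. The nearest NCoR peaks outside its window were 385 kb and 341 kb beyond its left and right edges. Positions below are peak centres relative to the nearest protein-coding start site of the gene, with minus for upstream. The shared sites lay at -15741 bp in intergenic DNA, at -27 bp on the promoter, and at +16632 bp in intron 4. At the promoter the SMRT centre was 4 bp and the HDAC3 centre 24 bp from the NCoR centre. Shared sites at a promoter of their own were found at 2.34% of all genes, and among the 8 at Slc2a2 and Gys2. An NCoR and HDAC3 site lay at +8058 bp in intron 2, and an NCoR and SMRT site at +24870 bp in intron 8. The 3 NCoR-only sites lay at -2120 bp, and at +24081 bp and +27613 bp in intron 8. The first of the intron 8 pair had a SMRT centre at 720 bp, outside the 200 bp allowed. The sequences of the promoter site, up to the base before the start site, and of the upstream shared site are shown because both hold the HNF6/CUX2 motif in capitals (plus strand).
Slc2a2 promoter, chr3:28697762-28697902: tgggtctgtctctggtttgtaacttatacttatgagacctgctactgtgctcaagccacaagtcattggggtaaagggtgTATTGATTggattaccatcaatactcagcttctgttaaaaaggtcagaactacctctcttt
Slc2a2 upstream, chr3:28682048-28682276: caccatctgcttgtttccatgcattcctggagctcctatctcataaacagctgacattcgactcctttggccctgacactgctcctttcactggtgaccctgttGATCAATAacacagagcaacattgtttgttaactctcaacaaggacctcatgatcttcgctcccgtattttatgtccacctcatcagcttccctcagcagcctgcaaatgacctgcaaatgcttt

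HNF6 and CUX2 are homeodomain factors. Their motif was searched as TATNGATN with C or T at either N, on both strands, in the central 200 bp of each peak, as were the other motifs. It was present in 4 of the 43 NCoR peaks (9.30%, 2.59 to 22.1), beside 5.67% of all NCoR peaks and 1.24% of windows 2 kb away. The share over all NCoR peaks lies inside this interval. All 4 were at Slc2a2, in 4 of its 8 peaks: those shown and the intron 8 sites at +24870 bp and +27613 bp. The classes of these 4 differed, with 2 shared, 1 NCoR and SMRT, and 1 NCoR-only. Among RefSeq promoters (GRCm38.p6, 250 bases before to 50 after the start) the motif was present in 1.32% of 32851. A match is a sequence description and not evidence of a bound factor.

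Gckr (ENSMUSG00000059434.9, chr5:31297443-31327314, plus strand) held a single NCoR peak, at -80 bp on its promoter, with an HDAC3 centre 41 bp away. The nearest SMRT centre was 104453 bp away. NCoR at a promoter of their own was found at 16.9% of all genes, and at 4 of the 8 (Slc2a2, Gckr, Gys2 and Pygl). The stretch without an NCoR peak next to this site reached 229 kb. The part of the peak before the start site is shown as the only site of the gene, with a match to the HNF4 half-site on the minus strand in capitals. HNF4 is a nuclear receptor of the hepatocyte lineage.
Gckr promoter, chr5:31297249-31297442: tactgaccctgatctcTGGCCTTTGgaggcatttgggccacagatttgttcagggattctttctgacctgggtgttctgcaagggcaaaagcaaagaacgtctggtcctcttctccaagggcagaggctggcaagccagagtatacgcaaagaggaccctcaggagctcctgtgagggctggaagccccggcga

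Khk (ENSMUSG00000029162.15, chr5:30921431-30931248, plus strand) lies 366 kb before Gckr on the same chromosome, and their windows did not overlap. At 9.82 kb it was the shortest of the 8 genes, and it sits among other genes. Its window held 10 NCoR, 4 SMRT and 4 HDAC3 peaks, but 8 of the 10 were nearest to another gene: 3 to Ost4, 2 to Cgref1, and 1 each to Emilin1, Tmem214 and Tcf23. The 2 nearest to Khk were a shared site at +3556 bp in its intron 2 and an NCoR and SMRT site at -1222 bp, which falls in coding exon 7 of Emilin1. The other shared sites lay at -11973 bp, nearest to Ost4, and at +27996 bp, nearest to Cgref1. At the latter the SMRT centre was 100 bp and the HDAC3 centre 90 bp from that of NCoR, the widest offset of SMRT among the 14 pairs. The outermost peaks, both NCoR-only, were at -42691 bp in the 3' UTR of Tmem214 and at +44596 bp upstream of Tcf23. No peak was centred on the Khk promoter. The RefSeq promoter of Khk holds an E-box (CACGTG, a site of basic helix-loop-helix factors), as do 7.15% of all promoters. The intron 2 site is shown as the shared site nearest to the start. It held none of the 11 motifs searched.
Khk intron 2, chr5:30925275-30925503: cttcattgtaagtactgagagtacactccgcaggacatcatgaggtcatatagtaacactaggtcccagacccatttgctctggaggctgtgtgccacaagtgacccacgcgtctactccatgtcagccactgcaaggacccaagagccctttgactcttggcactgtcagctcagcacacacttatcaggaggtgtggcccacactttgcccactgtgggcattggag

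Pfkl, the liver subunit of phosphofructokinase (ENSMUSG00000020277.10, chr10:77986947-78010083, minus strand), had 2 NCoR peaks and no SMRT or HDAC3 peak. The first lay at +460 bp in intron 1, outside the promoter as defined here (1000 bp before to 100 bp after a start site). The second, at +39155 bp, lay on the promoter of Trpm2, a cation channel gene. The nearest SMRT and HDAC3 centres to the intron 1 site were 108993 bp and 108103 bp away. That site was rich in CpG, with 18 CpG in the peak and a GC content of 65.1%, beside a median of 48.0% in the central 200 bp of all NCoR peaks. CpG counts of this order were met at 2 more NCoR-only peaks, on the promoters of Ost4 (30) and of Golt1b and Recql (26). No other of the 43 peaks had more than 11. NCoR-only sites made up 48.8% of the 43 peaks, and a link of CpG count to class was not tested. The intron 1 site holds an E-box, in capitals.
Pfkl intron 1, chr10:78009233-78009461: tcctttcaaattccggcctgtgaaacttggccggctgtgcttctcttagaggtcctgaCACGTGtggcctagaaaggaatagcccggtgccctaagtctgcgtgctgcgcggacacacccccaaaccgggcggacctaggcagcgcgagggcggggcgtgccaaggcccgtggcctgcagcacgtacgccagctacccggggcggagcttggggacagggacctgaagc

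Pfkfb1, which makes and removes the phosphofructokinase activator fructose 2,6-bisphosphate (ENSMUSG00000025271.13, chrX:150588229-150643878, plus strand), had 5 NCoR, 1 SMRT and 2 HDAC3 peaks. Its own sites clustered in intron 1 around a downstream start site at 150594478. An NCoR-only site lay at -1005 bp from it, an NCoR and HDAC3 site at +3836 bp, and an NCoR-only site at +4615 bp with an HDAC3 centre 741 bp away. With a single start site per gene these 3 peaks were nearest to Apex2 instead. No SMRT peak lay nearer than 44503 bp to any of them. The shared site of the window was at -40956 bp in intron 1 of Alas2, the erythroid enzyme that begins haem synthesis. An NCoR-only site on the Alas2 promoter, at -42421 bp from Pfkfb1, was the outermost. No NCoR peak was found for 845 kb on one side of the Pfkfb1 cluster. The shared site is shown, and held none of the 11 motifs.
Alas2 intron 1, chrX:150548851-150549079: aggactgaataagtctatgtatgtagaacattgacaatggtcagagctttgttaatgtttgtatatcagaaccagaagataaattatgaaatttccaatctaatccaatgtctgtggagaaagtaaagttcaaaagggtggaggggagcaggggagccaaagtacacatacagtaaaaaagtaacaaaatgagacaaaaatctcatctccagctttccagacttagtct

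Pklr, the liver pyruvate kinase gene (ENSMUSG00000041237.12, chr3:89136142-89146784, plus strand), had 4 NCoR peaks, all upstream, with 1 SMRT and 1 HDAC3 peak. The NCoR-only site at -2515 bp was nearest to Pklr. The shared site at -27773 bp and NCoR-only sites at -32563 bp and -22954 bp were nearest to Fdps, an enzyme gene of cholesterol synthesis. No peak lay inside Pklr or on its promoters. The site at -2515 bp held a match to the BCL6/STAT motif (TTCNNNGAA with a pyrimidine in the first and a purine in the last of the N positions), which was present in 2 of the 43 peaks (4.65%), beside 3.84% of all NCoR peaks and 2.95% of windows 2 kb away. The other was in Abhd12b, in the window of Pygl. The shared site held matches to the motifs of oestrogen-related receptors (ERR, TNAAGGTCA with C or G at N) and C/EBP (TTNNGCAA with a purine then a pyrimidine), which were present in 2.19% and 5.51% of all NCoR peaks.
Pklr upstream, chr3:89133513-89133741: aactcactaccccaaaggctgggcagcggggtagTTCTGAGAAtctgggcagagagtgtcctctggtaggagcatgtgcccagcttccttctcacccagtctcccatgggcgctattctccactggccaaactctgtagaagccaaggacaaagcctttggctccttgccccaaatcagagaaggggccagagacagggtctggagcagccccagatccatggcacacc
Pklr distal shared, chr3:89108255-89108483: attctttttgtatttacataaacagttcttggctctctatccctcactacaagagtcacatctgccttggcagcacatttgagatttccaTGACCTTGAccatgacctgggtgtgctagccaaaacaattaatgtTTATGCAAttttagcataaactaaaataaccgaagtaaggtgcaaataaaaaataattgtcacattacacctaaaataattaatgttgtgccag

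The carbohydrate response element (ChoRE), a pair of E-box-like elements bound by the sugar-sensing factor ChREBP with MLX, is a known feature of the Pklr promoter. It was matched in none of the 43 NCoR peaks (0%, upper limit 8.22) and in 0.0683% of all NCoR peaks. RefSeq promoters were at hand for 7 of the 8 genes, 11 in all, and 1 of them held it, as did 39 of all 32851 (0.119%). That promoter was at Pklr, with the first base of the match at -170 bp from the RefSeq start. The nearest NCoR centre was 2834 bp from it. The element is shown in capitals with 30 bases on either side.
Pklr promoter element, chr3:89136423-89136499: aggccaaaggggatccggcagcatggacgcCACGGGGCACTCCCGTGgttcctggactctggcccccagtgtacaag

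Gys2, the liver glycogen synthase gene (ENSMUSG00000030244.7, chr6:142422613-142473109, minus strand), had 6 NCoR, 3 SMRT and 2 HDAC3 peaks, and 5 of the 6 NCoR peaks were nearest to it. A shared site was centred at +50 bp, on the promoter and in the 5' UTR of exon 1. An NCoR and SMRT site lay 626 bp from it, at -576 bp, where the nearest HDAC3 centre was 637 bp away. Adjacent sites of 1 promoter thus fell in different classes. The other shared site lay at +13639 bp in coding exon 4 and held a match to the forkhead motif TGTTTAC. NCoR-only sites lay at +1821 bp in intron 1 and at +21481 bp in coding exon 8, both with E-boxes, and the outermost at +86008 bp on the promoters of Golt1b and Recql. The promoter site held the only match to DR1 among the 43 peaks (2.33%), a direct repeat read by PPAR/RXR and by HNF4, which was present in 1.55% of all NCoR peaks and 0.161% of windows 2 kb away. This match runs over chr6:142473126-142473138, just before the start site, and includes a match to the HNF4 half-site. The bases of the peak before the start site are shown with it in capitals. The intron 1 site is shown for its pair of E-boxes.
Gys2 promoter, chr6:142473110-142473173: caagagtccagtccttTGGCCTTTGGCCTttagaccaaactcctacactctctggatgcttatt
Gys2 intron 1, chr6:142471174-142471402: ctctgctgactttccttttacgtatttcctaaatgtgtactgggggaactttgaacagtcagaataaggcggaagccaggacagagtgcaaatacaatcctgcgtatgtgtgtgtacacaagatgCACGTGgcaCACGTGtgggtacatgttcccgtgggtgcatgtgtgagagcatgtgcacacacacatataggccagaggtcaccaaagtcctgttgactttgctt

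Pygl, the liver glycogen phosphorylase gene (ENSMUSG00000021069.17, chr12:70190811-70231488, minus strand), had 7 NCoR peaks, 5 HDAC3 peaks and 1 SMRT peak. It held 4 of the 8 sites with HDAC3 and without SMRT. These lay at -597 bp on the promoter, at +7429 bp in intron 2, at +31104 bp in intron 16, and in intron 8 of the neighbour Abhd12b, where the nearest start site was that of Abhd12b. The shared site lay at -2344 bp. NCoR-only sites lay at +880 bp in intron 1 and at -49049 bp in intron 5 of Trim9. The promoter site is placed by the upstream GENCODE start at 70231488, whereas the RefSeq promoter at hand surrounds a start further into the gene and held no NCoR centre. Both matches to the RORE, the element of the clock receptors REV-ERB and ROR, were at Pygl, at -597 bp and +7429 bp, and both sites were of the class with HDAC3 and without SMRT. The RORE was thus in 2 of the 43 peaks (4.65%, 0.568 to 15.8). It was present in 3.10% of all NCoR peaks, which lies inside this interval, and in 0.669% of windows 2 kb away. Of the 7 NCoR peaks at Pygl, 4 had HDAC3 without SMRT, and a link of motif to class was not tested. The 2 RORE sites are shown with the match in capitals, after the shared site, which held none of the 11 motifs.
Pygl upstream shared, chr12:70233718-70233946: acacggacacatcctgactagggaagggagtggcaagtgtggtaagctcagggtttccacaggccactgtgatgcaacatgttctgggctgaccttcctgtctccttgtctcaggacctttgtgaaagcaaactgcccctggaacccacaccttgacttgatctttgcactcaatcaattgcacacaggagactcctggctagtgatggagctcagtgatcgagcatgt
Pygl promoter, chr12:70231971-70232199: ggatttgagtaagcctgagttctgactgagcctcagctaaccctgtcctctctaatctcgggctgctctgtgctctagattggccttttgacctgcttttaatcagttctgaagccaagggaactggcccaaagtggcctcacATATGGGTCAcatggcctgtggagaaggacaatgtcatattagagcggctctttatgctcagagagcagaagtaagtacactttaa
Pygl intron 2, chr12:70220140-70220368: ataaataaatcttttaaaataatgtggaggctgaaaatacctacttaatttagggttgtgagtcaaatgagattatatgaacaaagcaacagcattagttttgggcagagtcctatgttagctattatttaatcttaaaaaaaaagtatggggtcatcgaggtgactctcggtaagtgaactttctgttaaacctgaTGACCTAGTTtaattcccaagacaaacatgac

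Over the 8 genes, 17 NCoR peaks lay inside the member (14 in introns, 2 in coding sequence and 1 in a 5' UTR), 9 inside another gene and 17 between genes. A promoter of a protein-coding gene held 9 (20.9%, 10 to 36.0, an interval that takes in the 10.4% of all NCoR peaks), of which 5 were promoters of the members and 4 of other genes. Of the peaks, 34 (79.1%, 64.0 to 90.0) had another NCoR centre within 10 kb, beside 62.1% of all NCoR peaks. Such peaks count each other as neighbours, so the interval does not measure the spread of this share, and the difference was not tested. The E-box was the motif found in more of the 43 peaks than any other, in 5 (11.6%, 3.89 to 25.1), beside 4.15% of all NCoR peaks and 2.51% of windows 2 kb away. Of these, 2 were at Slc2a2, 2 at Gys2 and 1 at Pfkl. The share over all NCoR peaks lies inside the E-box interval. None of the 5 was among the 11 shared sites (25.6% of the 43 peaks), and a link of the E-box to class was not tested. The HNF4 half-site (CAAAGNNCA with G or T then a pyrimidine) was in 4 (9.30%, beside 7.85% and 1.33%), 1 each at Gckr, Khk, Gys2 and Pygl. At least 1 of the 11 motifs was found in 22 of the 43 peaks (51.2%, 35.5 to 66.7). The share was 35.6% over all NCoR peaks, which lies just inside this interval, and 13.2% in windows 2 kb away. 

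Where SMRT or HDAC3 was present, it sat close to NCoR. The 14 SMRT centres lay a median of 35.5 bp from the NCoR centre (4 to 100), and the 19 HDAC3 centres 38.0 bp (8 to 90). The medians over the whole lists were 24.0 and 23.0 bp. All pairs were within 100 bp, and the next nearest partners were at 720 bp for SMRT and 637 bp for HDAC3. The class of a site therefore did not turn on the 200 bp limit at any of the 8 genes. Over the 8 genes, 10 of 14 SMRT centres (71.4%, 41.9 to 91.6) and 13 of 19 HDAC3 centres (68.4%, 43.4 to 87.4) lay on the lower-coordinate side of NCoR, beside 50.4% and 50.1% over the whole lists, which lie inside these intervals. The 4 SMRT and 4 HDAC3 centres at Slc2a2 made up part of these counts, and all of them lay on that side. At its 3 shared sites both offsets were measured from the same NCoR centre, so they are not independent.

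**Figure D4:**
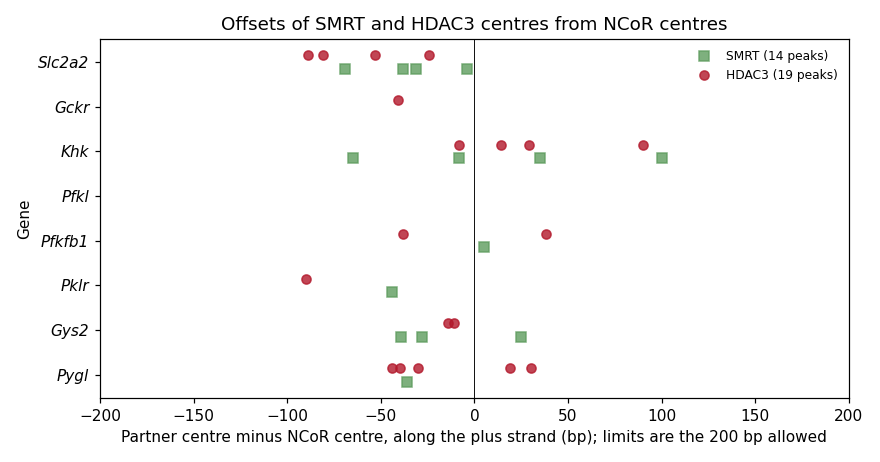
Offset in bp of each SMRT (squares) and HDAC3 (circles) centre from the NCoR centre it was paired with, by gene, with negative values at lower coordinates. All offsets lie within 100 bp of 0, and 10 of 14 SMRT and 13 of 19 HDAC3 offsets are negative.

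The 43 other genes listed for glucose, fructose and glycogen use gave a similar picture. NCoR was present at 39 of them, beside 72.3% of all protein-coding genes, and shared sites at 23, beside 39.2%. The median was 5 NCoR peaks (0 to 15), beside 5.50 for the 8 genes and 2 over all genes. Shared sites are given for 5 of the 6 steps listed. They were present at 8 of 16 genes of glycolysis and 3 of 4 listed under sugar transport. They were also present at 2 of 3 of fructose use, 7 of 13 of glycogen turnover and 2 of 3 sugar-sensing factors. Mlxipl, which encodes ChREBP, had 6 shared sites among 15 NCoR peaks. Ppp1r3g, a subunit that brings a phosphatase to glycogen, had 5 among 8, and Ldha, lactate dehydrogenase, had 4 among 7. No peak of any cofactor was found at Gyg, Hk2, Pfkm or Pygb. As a check on the tissue, all 6 hepatocyte marker genes had NCoR peaks and shared sites, beside 72.3% and 39.2% of all genes. Their median was 9.50 NCoR peaks, beside 2 over all genes. Of 8 markers of other cells, 7 had an NCoR peak, so the presence of NCoR alone did not set these markers apart. Their median was 1 NCoR peak, and 1 had a shared site (Stab2, of sinusoidal endothelium, with 3 shared sites among 10 NCoR peaks). The libraries came from liver tissue, where a peak does not say in what share of the cells the protein was bound, and the part of other cells in the peaks was not tested.

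**Figure D5:**
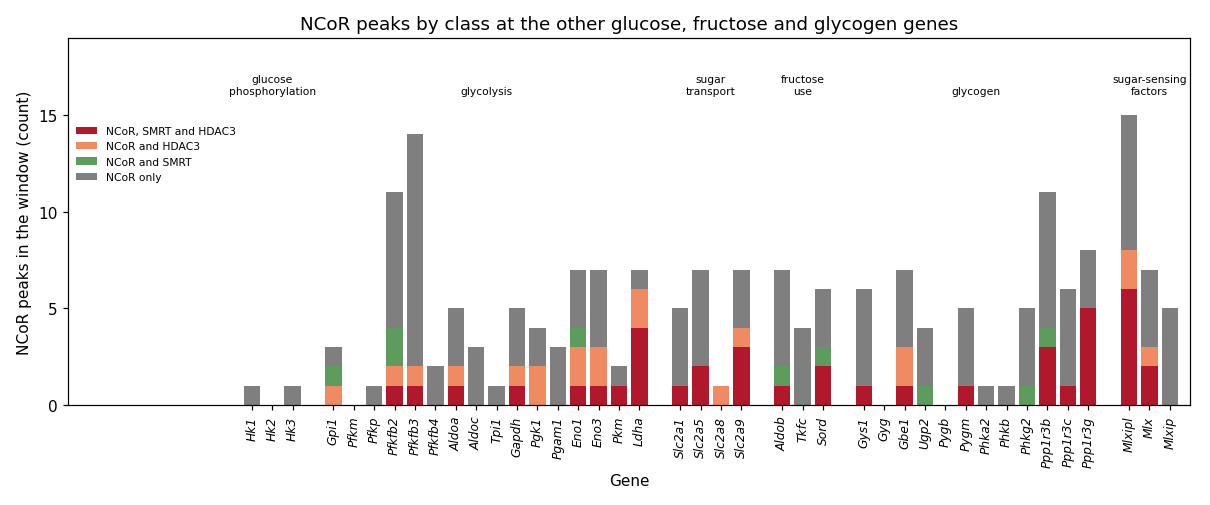
NCoR peaks inside or within 50 kb of 41 of the 43 other genes of glucose, fructose and glycogen use, grouped by step and stacked by class. Mlxipl has the most NCoR peaks, 15, of which 6 are shared with SMRT and HDAC3, and 4 genes have none.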

How the data were processed

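ChIP-seq was performed by the study on crosslinked mouse liver with antibodies to SMRT, NCoR and HDAC3, in 3 animals per protein. The authors aligned reads to mm10 with Bowtie, kept uniquely mapped reads, and called peaks with HOMER on pooled libraries against input, keeping peaks that passed their DESeq2 thresholds. Bowtie, HOMER and DESeq2 are named in the submitters' processing notes. The deposited lists give the start and end of each peak in mm10 and no other value. Interval lengths (end minus start) were 228 bp in the NCoR list and 212 bp in each of the others. Unique mapping leaves out repeated sequence, and pooling leaves no value per animal. No sequencing depth was given in the labels or files used here.

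Centres were compared with GENCODE vM21 basic genes on GRCm38, the assembly of mm10, on 21 chromosomes. Distances ran to the nearest start site of a protein-coding transcript. A promoter spanned 1000 bp before to 100 bp after a start. Motifs were consensus strings, searched on either strand in the central 200 bp; the HNF4 half-site lies within DR1, so their matches can coincide. RORE, DR1 and ChoRE are given by name. Printed sequences are plus-strand GRCm38 bases without annotated UTR, with list coordinates taken as 1-based and inclusive; promoter shares use RefSeq (GRCm38.p6). Shares carry exact (Clopper-Pearson) and counts exact Poisson 95% intervals. Classes and motifs planted in simulated data were recovered. Python 3.11.15, numpy 2.4.6, scipy 1.17.1 and matplotlib 3.10.9 were used. No test was run.

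The members, gene lists and motifs were chosen with earlier results of these data known. Named were all 8 genes, the 5 other listed genes highest in shared sites (symbol order broke ties) and up to 5 without a peak; some genes that the rule names are not reported here. Sites named were shared, promoter and outermost ones; others were added after their values were seen. Sequences shown were the shared site nearest the start of each gene, or the nearest NCoR site where none was shared, and sites whose motif is described. Alternatives were the reach around the gene, the partner distance, the start site set, the promoter width and the motif window.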

Additional observations from a re-analysis of the deposited data

How the results depend on the processing

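Of the 42 recomputed values, 39 stayed within 1.5 times the reported one. With a reach of 100 kb in place of 50 kb, NCoR-only peaks rose from 21 to 33. With promoters of 5000 bp to either side of a start, NCoR peaks at promoters of the 8 genes went from 5 to 16. In the central 100 bp in place of 200 bp, motif matches fell from 24 to 10. Members with a shared site numbered 4 at a reach of 20 kb and 7 at 100 kb, beside 25.9% and 52.9% of all genes. With the start sites of every transcript, 23 peaks were nearest to a member in place of 27, and the 3 Slc2a2 peaks in intron 8 were nearest to the antisense transcript 1700112D23Rik. Partner distances of 100 bp and 400 bp changed no class. No paired analysis was possible because the list of a protein gives no value per replicate. For the same reason no replicate could be left out, and a stricter peak threshold was not run because the lists used hold no score.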

Other observations

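The liver forms of these enzymes and the transporter gene Slc2a2 were set beside other members of their families, among them forms known from muscle. The comparison was chosen after the values were seen and not tested. Pfkl had 2 NCoR peaks and no shared site, beside 0 peaks at the muscle form Pfkm and 1 NCoR peak at Pfkp. Pklr had 4 NCoR peaks with 1 shared, beside 2 with 1 shared at Pkm, the pyruvate kinase of most other tissues. Gys2 had 6 with 2 shared, beside 6 with 1 shared at the muscle form Gys1. Pygl had 7 with 1 shared, beside 5 with 1 shared at the muscle form Pygm and 0 at the brain form Pygb. Pfkfb1 had 5 with 1 shared, fewer than Pfkfb2 with 11 and Pfkfb3 with 14, each also with 1 shared, and more than Pfkfb4 with 2 and none shared. Slc2a2 had 8 with 3 shared, beside 5 with 1 shared at Slc2a1, the transporter of many cell types, 7 with 2 shared at the fructose transporter Slc2a5, 7 with 3 shared at Slc2a9 and 1 with none shared at Slc2a8. The liver form was thus not the one with more peaks in every family. These counts were not scaled by window length, which grows with the gene. Pfkfb3 spans 82.6 kb and Pfkfb2 40.1 kb against 55.6 kb for Pfkfb1, and Slc2a9 spans 154 kb against 33.5 kb for Slc2a2. Windows take in neighbouring genes. At Pklr 3 of the 4 peaks, with the shared site, were nearest to Fdps, and at Pfkfb1 2 of the 5, with the shared site, to Alas2. At Pfkl, Gys2 and Pygl 1 peak each was nearest to a neighbour (Trpm2, Recql and Abhd12b), and none of these was shared. The part of neighbours in the counts of the other forms was not tested.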
